A study of Mus musculus with 8 samples.

Results

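YY1 regions called only in cells with the Alkbh5 del-cIDR genotype are described here. Peaks of the 4 YY1 lists on chromosomes 1 to 19 and X that overlapped by 1 bp or more were joined, which gave 20558 regions. The regions were chosen by the peak calls themselves: a peak in both del-cIDR lists and none in either WT list. This rule held for 1910 regions, 9.29% of all merged YY1 regions, called del-cIDR-only below. Since YY1 calls chose them, their YY1 values are given as a description, with no test.

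The cells were E14TG2a, an established mouse embryonic stem cell line kept in serum medium with LIF and the kinase inhibitors PD0325901 and CHIR99021. The genotypes are WT and Alkbh5 del-cIDR, with 2 libraries per genotype and antibody, 8 in all, and all cells share the same culture medium. The labels do not say whether the del-cIDR line is 1 clone, how the deletion was made, or whether replicates came from separate cultures. YY1 and P300 were mapped by CUT&RUN, in which an antibody-tethered nuclease releases the DNA near the target protein.

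YY1 is a transcription factor of the zinc-finger family, present in most cell types. It sits mainly near gene starts and at enhancers, activates or represses transcription depending on its partners, and can help to bring enhancers and promoters together. P300 is a histone acetyltransferase and coactivator whose binding is often used to locate active enhancers. ALKBH5 removes N6-methyladenosine from RNA, and the series title concerns intrinsically disordered regions of such demethylases, stretches of protein without a fixed fold.

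The YY1 lists differed in length before any region was compared. On the chromosomes used they held 9167 and 15517 peaks in del-cIDR replicates 1 and 2, and 3519 and 5833 in WT replicates 1 and 2. Both del-cIDR lists were thus longer than both WT lists, and the files do not give read totals. The P300 lists were shorter, with 1322 and 1286 peaks in del-cIDR and 1452 and 2474 in WT. A region without a WT peak was not called at a q of 0.05 in WT, which is not the same as unbound.

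Of the 5677 regions in both del-cIDR lists, 1910 were in no WT list, 1759 in 1 WT list and 2008 in both. The last group, present in all 4 lists, is called constant below. The group with 1 WT list serves as the nearest comparison, because it passed the same requirement in del-cIDR cells and differs by a single WT call. Another 11662 regions were in 1 del-cIDR list and nothing else, and only 60 were in both WT lists and no del-cIDR list.

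Enrichment at the del-cIDR-only regions was moderate and similar in the replicates. In del-cIDR replicate 1 the fold enrichment deposited by the authors had a median of 5.01, a lowest value of 3.13 and a highest of 10.5. In replicate 2 the median was 5.25, the lowest value 3.16 and the highest 13.3. The middle 80% of regions lay between 4.03 and 6.59 in replicate 1, and between 4.16 and 7.31 in replicate 2. The ranges therefore overlap almost wholly, with a longer upper end in replicate 2. Regions with 1 WT list had medians of 5.62 and 6.25 in the same libraries, and constant regions 7.19 and 8.19, so the 3 groups form a graded series in which the del-cIDR-only regions are lowest.

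By significance the regions were weaker than both comparison groups. A −log10 q of at least 5 was reached by 599 regions (31.4%) in replicate 1 and by 660 (34.6%) in replicate 2. The same level was reached by 55.8% and 62.5% of regions with 1 WT list and by 85.0% and 89.4% of constant regions. The top 25% of its list held 209 of the del-cIDR-only regions (10.9%) in replicate 1 and 453 (23.7%) in replicate 2, where the share is close to that of the whole list. It held 31.8% and 52.7% of regions with 1 WT list and 70.9% and 83.9% of constant regions. Weak calls at the other end reached the threshold itself, with a lowest −log10 q of 1.30 in replicate 1, at chr2:72868422-72868981, and 1.32 in replicate 2, at chr6:91133707-91133946.

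Rank was also read against the lengths of the WT lists. Only 201 regions (10.5%) ranked within the first 3519 peaks of both del-cIDR lists, the length of the list of WT replicate 1, while 1164 (60.9%) ranked within them in neither. Within 5833 peaks, the length of the list of WT replicate 2, 584 regions (30.6%) ranked in both. The same shares were 72.2% and 89.2% for constant regions, and 32.4% and 60.5% for regions with 1 WT list. With all 4 lists shortened to their best 3519 peaks, 309 regions met the rule, of which 201 were del-cIDR-only regions of the whole lists. List length and rank thus move with the count of these regions. Their part in it was not tested. Without 1 YY1 list the rule gave 10637 (del-cIDR replicate 1), 5026 (del-cIDR replicate 2), 2283 (WT replicate 1) or 3290 (WT replicate 2) regions. The merged regions then numbered 17654, 12057, 20030 and 19448 in that order.

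The rule requires the peaks of both del-cIDR lists to meet in 1 region, so their closeness in position is given here as a description. The highest points of the peaks, the summits, lay a median of 75 bp apart (95% interval 70 to 80), and 1130 regions (59.2%) had summits within 100 bp. This gap was 72 bp (67 to 78) in regions with 1 WT list and 58 bp (53 to 62) in constant regions. A median of 53.6% of the bases of a region was covered in both lists, against 71.1% in constant regions. Across regions, log2 folds of the replicates had a Pearson correlation of 0.32 and a Spearman correlation of 0.26 (n = 1910), against 0.73 and 0.67 in the constant regions (n = 2008). These are descriptions across regions of the same 2 libraries, and a narrow range of folds lowers a correlation. The fold was higher in replicate 2 at 1124 regions (58.8%), with a median log2 difference of 0.076 (SD 0.36 across regions).

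The best-ranked regions were strong in both libraries. The region at chr11:88864750-88865367 had folds of 9.26 and 9.95, and its summits were 16 bp apart. At chr9:96373802-96374056 the folds were 7.95 and 11.2, with summits 49 bp apart. Their nearest WT peaks lay 11005 and 13179 bp away. The third, chr11:107438753-107439094, reached folds of 9.17 and 9.63 and had its nearest WT peak at 359 kb.

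The other 7 of the 10 best-ranked regions also stood apart from WT peaks, with 1 exception. At chr11:79971536-79972418 the folds were 8.11 and 9.20, and the nearest WT peak lay 87.4 kb away. At chr13:65562927-65563143 they were 9.96 and 10.8. This region was the only one of the 10 with P300 peaks, which 3 of the 4 P300 lists held. The regions at chr14:20132780-20133189, chr4:81067445-81068060, chr3:100039698-100040051 and chr19:31059934-31060306 had no WT peak within 100 kb. The exception was chr15:79212508-79212843, with folds of 7.82 and 7.72 and a WT peak 0.620 kb away.

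The region highest in 1 library was not the highest in the other. The highest fold in replicate 1, 10.5 at chr6:58769338-58769989, stood beside 4.53 in replicate 2, and a WT peak lay 0.464 kb from that region. The highest in replicate 2, 13.3 at chr6:124188091-124188428, stood beside 7.57 in replicate 1.

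The del-cIDR-only regions lay farther from constant YY1 regions in the median than constant regions lay from each other. The median distance to the nearest constant region, from edge to edge, was 258 kb (95% interval 232 to 285). It was 217 kb (198 to 244) for regions with 1 WT list, whose interval overlaps, and 184 kb (170 to 202) from a constant region to the next one. Regions held by 1 del-cIDR list alone had a median of 271 kb (262 to 281), within the interval of the del-cIDR-only regions. Without the YY1 list of WT replicate 1 the median distance of the del-cIDR-only regions was 139 kb, and without that of WT replicate 2 it was 200 kb. Without del-cIDR replicate 1 it was 249 kb and without del-cIDR replicate 2 it was 269 kb. Leaving out a list also changes which regions count as constant. Intervals here come from order statistics and cover counting error only, since regions of the same libraries are not replicates.

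**Figure D1:**
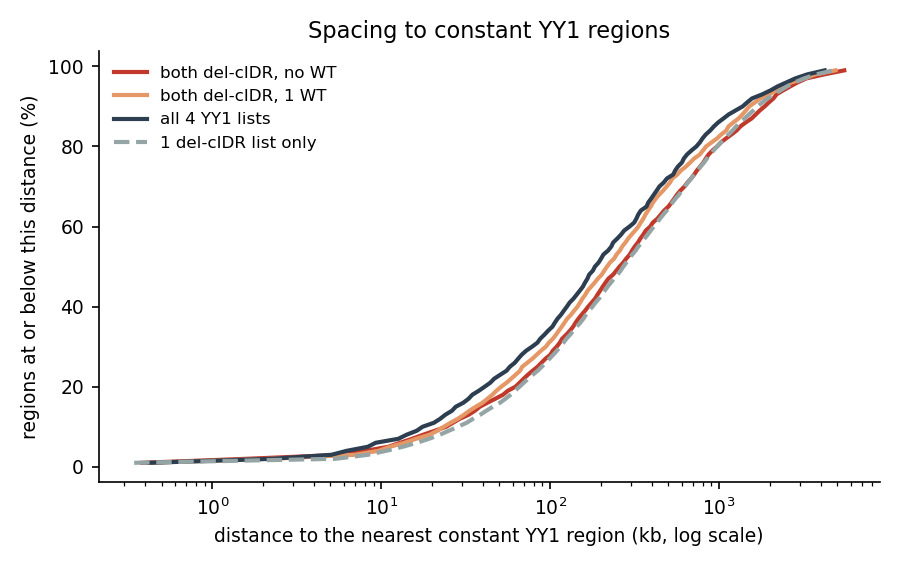
Distance to the nearest constant YY1 region in kb (log scale, horizontal) against the percentage of regions at or below that distance (vertical), for 4 groups of YY1 regions. The curve of the del-cIDR-only regions (median 258 kb) follows that of regions held by 1 del-cIDR list (271 kb) and lies to the right of the constant regions (184 kb) over most of the range.

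A constant region close by was rare in every group compared. Only 33 del-cIDR-only regions (1.73%) lay within 1 kb of a constant region, against 1.59% of regions with 1 WT list, and 90 (4.71%, Wilson 95% interval 3.85 to 5.76) within 10 kb. The 10 kb share was 4.32% (3.47 to 5.37) for regions with 1 WT list and 6.23% (5.25 to 7.37) between constant regions. Within 100 kb the shares were 28.0% (26.0 to 30.0), 31.4% (29.3 to 33.6) and 34.5% (32.4 to 36.6). Seen from the constant regions, 91 of 2008 (4.53%) had a del-cIDR-only region within 10 kb and 567 (28.2%) within 100 kb. The interval of the del-cIDR-only regions overlaps that of regions with 1 WT list at 1, 10 and 100 kb, and that of constant regions at 1 and 10 kb but not at 100 kb.

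The extremes show both kinds of surroundings. At chr16:4501616-4501849 a del-cIDR-only region of 234 bp touched a constant region, with 0 bp between them. The next closest were at chr2:23045482-23046151 and at chr7:29154651-29155092, at 15 and 16 bp, followed by chr8:70687245-70687660 at 39 bp and chr11:117740058-117740536 at 59 bp. These lie beside a constant peak and were kept as regions of their own by the 1 bp merging rule. The most remote were chrX:119295078-119295672, chrX:126038383-126038867 and chrX:128303524-128303955, at 14.03, 9.60 and 7.34 Mb from a constant region. On the same scale chr11:40791983-40792321 and chr11:40646046-40646523 lay 7.30 and 7.16 Mb away.

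Distances to all peaks of either WT list, in constant regions or not, were also considered. A peak of either WT list lay within 1 kb of 142 del-cIDR-only regions (7.43%, 6.34 to 8.70) and within 10 kb of 296 (15.5%), which leaves 1768 and 1614 regions with none. All 33 regions within 1 kb of a constant region are among the 142. The 142 were narrower than the rest, with a median width of 338.5 against 385 bp, and had median folds of 4.68 and 5.07 against 5.04 and 5.26. Most del-cIDR-only regions had no WT peak within 1 kb, but the rule had already removed every region that overlaps one. The same shares were not measured for other groups.

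The rule turns on 1 bp, so the regions on either side of it are close in position and value. Just inside it, after the touching region on chromosome 16 with folds of 5.92 and 4.66, gaps to a WT peak were 6 bp at chr5:23916650-23917160 (folds 4.94 and 5.31) and 10 bp at chr8:65775219-65775768 (4.23 and 5.29). Just outside it, a WT peak shared 1 bp with the region at chr5:140553149-140553720 (4.61 and 5.21 in del-cIDR, 3.81 in WT replicate 2). It shared 3 bp at chr17:56315237-56316092 and 9 bp at chr17:79220479-79221583. Such cases were few: 15 del-cIDR-only regions had a WT peak within 50 bp, and 20 of 3767 regions outside the rule rested on an overlap of at most 50 bp.

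Most del-cIDR-only regions stood alone rather than in groups. With gaps of at most 50 kb joined, 1598 regions were single, and 312 (16.3%, 14.7 to 18.1) lay in 146 clusters. Of these, 128 were pairs, 16 held 3 regions and 2 held 4. The share with another region of the same group within 50 kb was 16.5% (14.9 to 18.4) for the regions with 1 WT list and 23.0% (21.2 to 24.9) for constant regions. This share also moves with the number of regions in a group, which is close in all 3. Without del-cIDR replicate 1, del-cIDR replicate 2 or WT replicate 2 the rule gave more regions and the clustered share was 57.3%, 34.4% and 27.0%. With all 4 lists, the median distance to the next region of the same group was 248 kb for the del-cIDR-only regions. It was 272 kb for regions with 1 WT list and 184 kb for constant regions.

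A few clusters are given here because they held the most regions over the shortest spans. The first, at chr10:69160355-69188854, held 4 regions in 28.5 kb, with folds of 4.12 to 5.39 in replicate 1 and 3.97 to 6.67 in replicate 2. No WT peak lay in it, and the nearest constant region was 742 kb away. The second, at chr7:45016650-45089259, held 4 regions in 72.6 kb, also with no WT peak inside, but with a constant region 20.7 kb away. A region with 1 WT list was centred at −5.63 kb from the start of this cluster. Clusters of 3 lay at chrX:135072005-135082216 (10.2 kb), chr19:44376526-44397078 (20.6 kb) and chr9:22218659-22239689 (21.0 kb). None of these 3 had a WT YY1 peak inside, and the last held 1 P300 peak. Some of their regions were close neighbours. Centres lay 0.37 and 1.32 kb from the cluster start on chromosome X, and 0.27 and 0.76 kb on chromosome 19. Across all 146 clusters, 14 spanned a constant region and 37 (25.3%) a WT peak.

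**Figure D2:**
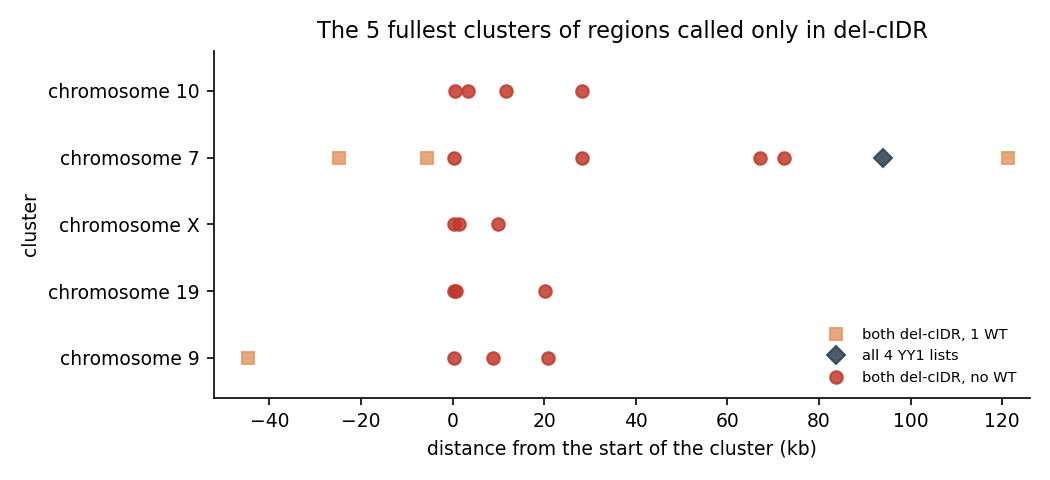
Centres of YY1 regions in the 5 clusters, as distance in kb from the start of each cluster (horizontal), with the chromosome of the cluster on the vertical axis; circles are del-cIDR-only regions, squares regions with 1 WT list and diamonds constant regions within 50 kb. The del-cIDR-only regions lie within 28.5 kb or less of each other except on chromosome 7 (72.6 kb), where the constant region lies beyond the last of them.

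The regions were spread over every chromosome analysed. They numbered 63 on chromosome 18 to 164 on chromosome 11, and there were 0.951 of them per constant region over the genome. The lowest ratio was on chromosome 8, with 88 del-cIDR-only and 130 constant regions (0.677), and the highest on chromosome X, with 86 and 64 (1.34). Chromosome 8 thus held 4.61% (3.75 to 5.64) of the del-cIDR-only and 6.47% (5.48 to 7.64) of the constant regions, and chromosome X 4.50% (3.66 to 5.53) and 3.19% (2.50 to 4.05). The intervals of the del-cIDR-only and constant regions overlapped on all 20 chromosomes. Regions with 1 WT list had 4.95% on chromosome 8 and 3.35% on chromosome X.

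**Figure D3:**
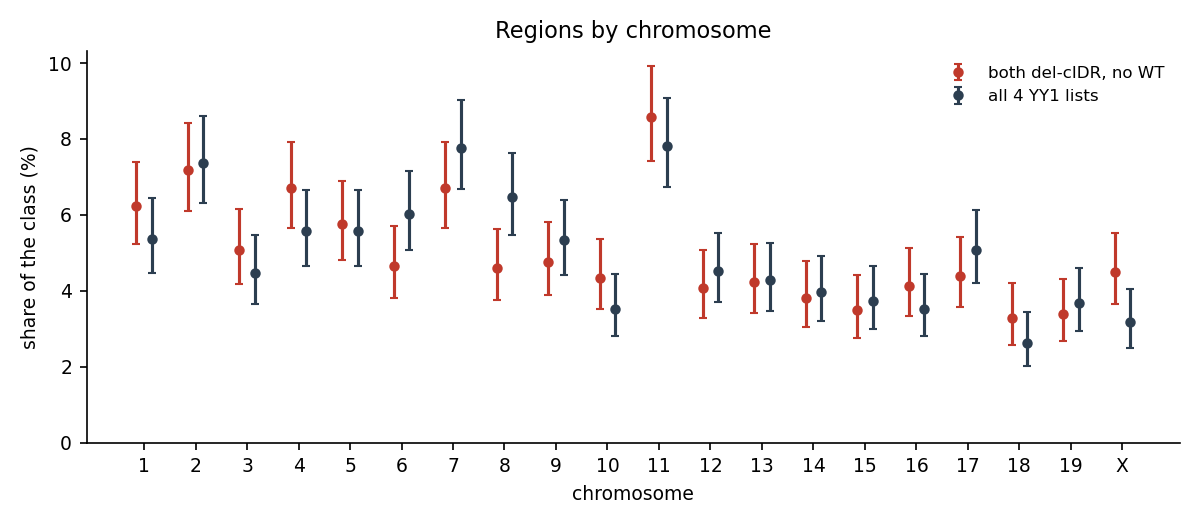
Percentage of del-cIDR-only and of constant YY1 regions (vertical) on each chromosome (horizontal), with 95% Wilson intervals that cover counting error only. The points are close on most chromosomes; chromosome 8 (4.61% against 6.47%) and chromosome X (4.50% against 3.19%) show the most unequal ratios, with overlapping intervals.

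The del-cIDR-only regions were narrower than regions also found in WT. The median width of the merged region was 382 bp (95% interval 373 to 390), with a lowest value of 164 and a highest of 1085 bp. Without del-cIDR replicate 1 it was 196 bp and without del-cIDR replicate 2 it was 228 bp. These settings gave other sets of 10637 and 5026 regions, each resting on a single del-cIDR list. Regions with 1 WT list measured 485 bp (472 to 497) and constant regions 636 bp (623 to 649). The 60 regions in both WT lists and no del-cIDR list measured 347 bp (300 to 391), an interval that holds the del-cIDR-only median. Regions held by 1 del-cIDR list alone measured 195 bp, and those of 1 WT list alone 212 bp. A region merged from more lists is wider by construction, so the peaks of the del-cIDR lists were also measured by themselves. Their median widths at the del-cIDR-only regions were 263.5 and 259.5 bp in replicates 1 and 2, against 329 and 351 bp at regions with 1 WT list and 457 and 490 bp at constant regions. Only 29 del-cIDR-only regions held more than 1 peak of the same list, against 181 constant regions.

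Width rose with rank in every group, and the order of the groups held within most bands of rank. Regions were divided by their mean percentile of −log10 q in the del-cIDR lists. From the 50th to the 75th percentile, the mean width of the del-cIDR peaks had a median of 308.5 bp (299 to 316.5) at 741 del-cIDR-only regions, 343.5 bp (332 to 357.5) at 763 regions with 1 WT list and 404 bp (383 to 421) at 395 constant regions. Above the 75th percentile the values were 336.5 bp (310 to 361; 199 regions), 390.75 bp (375.5 to 408) and 516.5 bp (504.5 to 526.5). From the 25th to the 50th they were 264, 283 and 321 bp. Below the 25th percentile the del-cIDR-only regions and those with 1 WT list both had 225.5 bp, and too few constant regions lay there. A wide peak also has more bases on which a WT peak can fall, so width is not independent of the rule.

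The widest del-cIDR-only regions were near 1 kb. They were at chr18:31767064-31768148 (1085 bp, folds of 4.60 and 6.28), chr12:86734626-86735702 (1077 bp, 4.03 and 6.24), chr11:77984950-77986020 (1071 bp, 5.06 and 7.67) and chr5:104256603-104257669 (1067 bp, 4.47 and 5.11). The fifth, at chr1:37025860-37026924, measured 1065 bp and had summits 775 bp apart, so its peaks overlapped at their edges only. None of the 5 was among the 10 best-ranked regions.

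**Figure D4:**
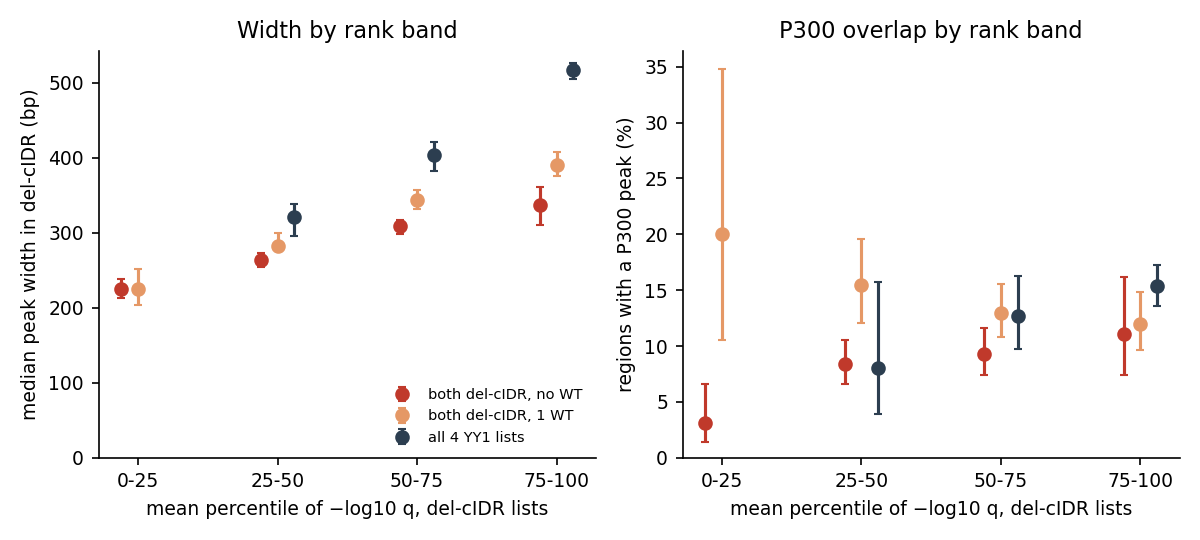
Left, median over regions of the mean del-cIDR peak width in bp, with its 95% interval; right, percentage of regions with a peak of any P300 list, with 95% Wilson intervals; both against 4 bands of mean percentile of −log10 q in the del-cIDR YY1 lists. Widths rise from band to band and are lowest for del-cIDR-only regions above the 25th percentile, while the intervals of the P300 shares overlap in both bands above the 50th percentile.

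Overlap with any P300 list at the del-cIDR-only regions was close to that of all YY1 regions. Of all YY1 regions, 56.7% were in 1 del-cIDR list alone. A peak of at least 1 P300 list overlapped 162 of the 1910 (8.48%, 7.31 to 9.82), against 7.72% of all YY1 regions. The share was 13.3% (11.8 to 15.0) at regions with 1 WT list and 14.5% (13.1 to 16.2) at constant regions. The 3 groups also differ in median width (382, 485 and 636 bp). P300 shares were not adjusted for width, here or in the bands of rank below. Of the 162, 116 overlapped a peak of 1 P300 list, 56 of them of WT replicate 2, the longest P300 list, while 32 had 2 lists, 10 had 3 and 4 had all 4. At constant regions 74 had all 4 lists. Without regions held by all 4 P300 lists, the shares were 8.29% (7.13 to 9.61), 12.51% (11.04 to 14.1) and 11.3% (9.94 to 12.8).

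At del-cIDR-only regions the P300 share rose with YY1 rank. It was 3.11% (1.43 to 6.62) below the 25th percentile of mean YY1 rank, 8.37% from the 25th to the 50th, 9.31% from the 50th to the 75th and 11.1% (7.41 to 16.2) above it. In the highest band the regions with 1 WT list had 12% (9.64 to 14.8) and the constant regions 15.3% (13.6 to 17.2), and the intervals of all 3 groups overlapped. In the 25th to 50th percentile band the del-cIDR-only share (6.62 to 10.5) lay below that of regions with 1 WT list (15.4%, 12.1 to 19.6), while constant regions had 8.05% (3.95 to 15.7). Below the 25th percentile the 40 regions with 1 WT list had 20% (10.5 to 34.8). The bands therefore do not show the same order of the groups.

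P300 libraries were not used to choose these regions, so the genotypes can be compared there. Peaks overlapping a del-cIDR-only region numbered 45 and 47 in the P300 lists of del-cIDR replicates 1 and 2, and 50 and 86 in those of WT replicates 1 and 2. Both del-cIDR values were below both WT values, and WT replicate 2 stood well above the other libraries. The means were 46.0 ± 1.41 (SD, n = 2) and 68.0 ± 25.5 (SD, n = 2), a log2 difference of −0.51. The 2-sided exact permutation test gave p = 0.33, the smallest that 6 assignments of 4 libraries allow, so it cannot pass 0.05. Leaving out WT replicate 2 made it −0.12, and leaving out WT replicate 1 made it −0.90. The whole P300 lists differed by −0.54, almost the same amount.

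As a share of its own P300 list, the libraries lay close together. The overlapping peaks made up 3.40% (2.55 to 4.52) and 3.65% (2.76 to 4.83) of the del-cIDR lists and 3.44% (2.62 to 4.51) and 3.48% (2.82 to 4.27) of the WT lists. The mean shares were 3.53% ± 0.177 (SD, n = 2) in del-cIDR and 3.46% ± 0.0231 (SD, n = 2) in WT, a log2 difference of 0.028 (exact permutation p = 1). The direction thus turned when list length was taken into account, and the difference was smaller than the gap between the del-cIDR replicates. Regions with 1 WT list had a log2 difference of 0.052 in the same share and constant regions one of 0.30, where WT replicate 2 was the low library.

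**Figure D5:**
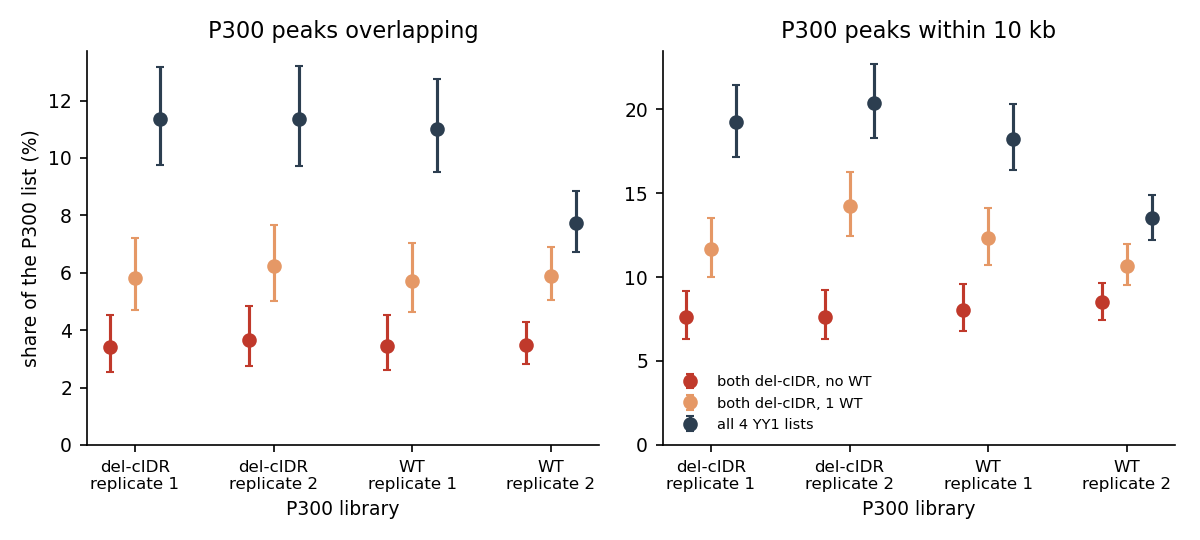
Percentage of the peaks of each P300 list (vertical) that overlap a YY1 region (left) or lie within 10 kb of one (right), for the 4 P300 libraries (horizontal) and 3 groups of YY1 regions, with 95% Wilson intervals. At del-cIDR-only regions the 4 libraries lie between 3.40% and 3.65% on the left and between 7.62% and 8.49% on the right, with overlapping intervals.

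The wider surroundings were compared in the same way. Within 10 kb of a del-cIDR-only region lay 101 and 98 P300 peaks of the del-cIDR lists and 117 and 210 of the WT lists. The means were 99.5 ± 2.12 and 163.5 ± 65.8 (SD, n = 2 each), a log2 difference of −0.66 (exact permutation p = 0.33, the smallest possible). Without WT replicate 2 it was −0.23, and without WT replicate 1 it was −1.08. As shares of the list the values were 7.64% and 7.62% in del-cIDR and 8.06% and 8.49% in WT, a log2 difference of −0.12 (exact permutation p = 0.33), and the counting intervals of all 4 overlapped. Both del-cIDR shares were thus below both WT shares, in a design whose test cannot pass 0.05. Other windows did not show this order of the shares. The log2 difference in share was −0.071 within 1 kb (exact permutation p = 0.67) and 0.0018 within 100 kb. Within 10 kb it was 0.17 for regions with 1 WT list and 0.33 for constant regions.

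Where P300 was found at del-cIDR-only regions, its peaks ranked below the middle of their lists in the median. The median P300 fold at del-cIDR-only regions was 4.96 and 4.74 in the P300 lists of del-cIDR replicates 1 and 2 and 4.79 and 4.90 in those of WT replicates 1 and 2, with median percentiles of 31.4 to 48.4 within the lists. At regions with 1 WT list the median folds were 4.93 to 5.07, with percentiles of 48.4 to 55.7. The del-cIDR-only percentile was the lower one in every P300 list. It was 48.1 against 53.0 and 39.9 against 52.4 in del-cIDR replicates 1 and 2. In WT replicates 1 and 2 it was 31.4 against 48.4 and 48.4 against 55.7. At constant regions the median folds were 5.68 to 6.05. The P300 and YY1 summits were a median of 70 to 94 bp apart at del-cIDR-only regions, 46 to 69 bp at regions with 1 WT list, and 38.5 to 53 bp at constant regions.

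P300 peaks of both del-cIDR libraries were found at 12 del-cIDR-only regions (0.628%, 0.360 to 1.09), against 1.26% of all YY1 regions, and peaks of both WT libraries at 13 (0.681%), against 1.55%. Both shares were lower than among all YY1 regions, but this depended on the YY1 list of WT replicate 2. Without that list, P300 peaks of both del-cIDR libraries were at 39 of 3290 regions (1.19%, 0.868 to 1.62), against 1.24% of all regions merged the same way. Those of both WT libraries were at 48 (1.46%, 1.10 to 1.93), against 1.56%. Without WT replicate 1 the del-cIDR P300 count was 18 of 2283 (0.788%, 0.499 to 1.24), against 1.24% of all regions. Without del-cIDR replicate 1 it was 43 of 10637 (0.404%), against 1.40%. Without del-cIDR replicate 2 it was 21 of 5026 (0.418%), against 1.87%. In these settings the share was again below that of all regions, though the interval reached it without WT replicate 1. Both del-cIDR and no WT P300 list held 4 regions, and both WT and no del-cIDR P300 list held 3. The latter share was 0.157% (0.0534 to 0.461), below that of regions with 1 WT list (14 regions, 0.796%, 0.475 to 1.33). At constant regions it was 0.448% (9 regions), with an interval that overlaps those of both other groups. These shares were not adjusted for width.

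The 12 regions fall into 3 kinds by their WT P300 lists. All 4 P300 lists held chr17:79650374-79650891, where P300 folds were 8.18 and 6.28 in del-cIDR and 9.43 and 10.4 in WT, and YY1 folds 4.79 and 5.03. The others of this kind were chr4:78431674-78431853, chr7:129022584-129023132 and chr8:14065041-14065231. At these 4, P300 was thus called in WT cells where YY1 was not, although at chr7:129022584-129023132 a WT YY1 peak lay 39 bp away.

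Another 4 had P300 in 1 WT list. These were chr1:22506157-22506542, chr13:65562927-65563143, chr17:13903929-13904171 and chr7:133310820-133311092. On chromosome 13 P300 folds were 7.46 and 7.47 in del-cIDR and 7.33 in WT replicate 2, beside YY1 folds of 9.96 and 10.8.

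The last 4 had no WT P300 peak. At chr1:183078224-183078833, YY1 folds were 6.59 and 7.18 and P300 folds 4.80 and 6.32. At chr5:139311453-139311890 they were 4.34 and 5.88 for YY1 and 5.53 and 4.75 for P300. At chr11:96868296-96868810 and at chr12:72132403-72132872 the P300 folds were 4.11 and 5.20, and 5.57 and 5.12. Constant regions and regions with 1 WT list also held 4 regions each of this P300 pattern (0.199% and 0.227%, against 0.209% of del-cIDR-only regions).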

How the data were processed

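The deposited files are 1 peak list per library, so replicates were not pooled. Per the submitters' processing notes the build was GRCm39 and the tools, listed without roles, were MACS2, BWA, fastp, Picard, SAMtools and featureCounts. The sources used here do not give a control library for the calls. Each deposited peak carries a whole-number score, a fold enrichment over local background (a ratio), −log10 p and −log10 q values, and a summit position in bp. These values are the authors' own, and served to describe or rank peaks inside a list. Coordinates are on GRCm39, counted from 1.

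Peaks on chromosomes 1 to 19 and X were used, which left out 0.683% to 10.0% of a list. Regions were merged, classified and measured with Python 3.11.15, NumPy 2.4.6, pandas 2.3.3 and SciPy 1.17.1, with code tested on simulated lists. A percentile is the rank of −log10 q within a list. Wilson and order-statistic intervals (95%) cover counting error only, and a p-value here reflects library-to-library spread alone, possibly technical, as the labels name no separate cultures. The regions, groups and tests were chosen with earlier results of these data known, and the bands of rank after their values were seen. Regions named are the 10 best ranked, 5 widest, 5 closest to and 5 farthest from a constant region, 5 fullest clusters, those with P300 in both del-cIDR lists, and 3 on either side of the 1 bp rule; the regions with the lowest q or highest fold of a library were added after values were seen. The gene and promoter tables used here are on GRCm38, so genes and sequences at these positions were not analysed here.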

Additional observations from a re-analysis of the deposited data

How the results depend on the processing

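The count of 1910 del-cIDR-only regions stayed within 1.5 times (1614 to 2099) when gaps of 200 or 1000 bp were merged, when chromosome Y was added, with −log10 q ≥ 2, and when WT peaks within 1 or 10 kb were not allowed. Requiring −log10 q ≥ 5 in the YY1 lists gave 739 regions, and lists of equal length gave 309. Leaving out 1 YY1 library at a time gave 2283 to 10637 regions, a median distance of 139 to 269 kb, a clustered share of 18.5% to 57.3%, a median width of 196 to 404 bp and 18 to 43 regions with P300 in both del-cIDR libraries. The lists of del-cIDR replicates 1 and 2 and of WT replicate 2 each moved the count of regions, the clustered share and the P300 count by over 1.5 times, the del-cIDR lists also the width, and WT replicate 1 the distance. A rule resting on fewer lists is met more often by construction. 

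Under the stricter q, the median distance to a constant region was 465 kb, the clustered share 6.90%, the median width 465 bp and the P300 count 4. With equal lists these were 442 kb, 1.29%, 443 bp and 2. These settings also thin the constant regions (1360 with equal lists), which lengthens distances by construction. The distance was 304 kb to constant regions that no P300 list holds. The clustered share was 4.50% for 10 kb and 28.3% for 100 kb. The median width was 452 bp with gaps of 1000 bp merged and 279.5 bp as the mean width of the peaks. The P300 count was 32 within 10 kb, 162 for any P300 library and 4 for all 4 libraries.

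The log2 difference in overlapping P300 peaks turned from −0.51 to 0.028 as a share of the list, was −0.08 for P300 peaks with −log10 q ≥ 5, and ranged from −0.90 to −0.12 without 1 P300 library. Within 10 kb it stayed negative under all alternatives tried (−1.08 to −0.12), with −0.23 without P300 WT replicate 2. Among these, windows of 1 and 100 kb were tried for peak numbers only. As a share of the list the difference within 100 kb was 0.0018. With the replicate number as a block the paired values were the same, −0.51 and −0.66, with a sign-flip permutation p = 0.5, the smallest 2 pairs allow; the labels do not say that equal numbers mark shared cultures. Read totals are not in the files, so regions missing from a WT list may lie just under the threshold.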
